A study of Mus musculus with 6 samples.

Results

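*Clec4n* and 8 genes related to it in family or signalling were described in the aortic wall of mice with and without miRNA-26b. They are *Clec4n*, *Clec4a1*, *Clec4a2*, *Clec4a3*, *Clec4d*, *Clec4e*, *Clec7a* and *Clec10a*, which are 8 C-type lectin receptors of myeloid cells, and *Fcer1g*, the gene of an adaptor through which several of them signal. The members were selected on measured values, namely the difference of *Clec4n* between the genotypes in these same libraries, and were found by symbol: all 9 are among the 55341 genes of the count table, 8 had a count in any library, and 7 of them are among the 16017 genes that passed the filter on low counts. The values of these genes between the genotypes are therefore a description without a test. RNA of 3 miRNA-26b-/- mice (libraries M2626, M2627 and M2628) and 3 miRNA-26b+/+ mice, called controls below (M2629, M2630 and M2631), was sequenced, 1 library for each mouse, all aged 8 weeks and fed chow, to learn how the loss of the miRNA alters the transcripts of the vessel. In the miRNA-26b-/- mice a floxed stretch of an intron of *Ctdsp1*, which holds the miRNA hairpin, had been deleted with tamoxifen-activated CreERT2, and the CreERT2 gene was then bred out, so that both mature strands of the miRNA were lost. The promoter that drove CreERT2 is not given in the sources used here. The allele came from R1/E embryonic stem cells of 129/Sv origin in C57BL/6NCrl embryos and was first bred on a mixed background, and the methods place all mice, controls included, on a C57BL/6 background without a number of backcrosses. In the sample labels the strain of all 6 mice is C57BL/6NCrl and the genotype of the controls is given as naive.

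C-type lectin receptors bind sugars on microbes and on damaged or altered self proteins. *Clec4n* encodes Dectin-2, a receptor for mannose-rich fungal glycans that has no signalling motif of its own and is carried to the cell surface by the Fc receptor gamma chain, the product of *Fcer1g*, whose phosphorylated motif recruits the kinase Syk and through it the Card9, Bcl10 and Malt1 complex. In the artery wall such receptors are found on resident macrophages, on dendritic cells and on monocytes that enter from the blood.

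The sequences below show the seed of the deleted miRNA and the stretch of *Clec4n* that is complementary to it. In the mature sequences of RefSeq (build GRCm38.p6) the seed, bases 2 to 8, is in capitals, and it is the same 7 bases in miRNA-26b-5p and in the related miRNA-26a-5p, which was not deleted. In the *Clec4n* window the capitals mark the 8mer, the reverse complement of the seed followed by A.
miRNA-26b-5p: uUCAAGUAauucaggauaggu
miRNA-26a-5p: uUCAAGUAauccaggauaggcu
Clec4n site: tgaactgctgtTACTTGAAagtataagatg
The window lies at chr6:123246973-123247002 of GRCm38 on the forward strand, within 1 exon and within the 3′ UTR of *Clec4n*. The 8mer begins at base 399 of a longest annotated 3′ UTR of 436 bases, ends 30 bases before its end, and is present in 3 of the 4 coding transcripts with a 3′ UTR. No 8mer (TACTTGAA), 7mer-m8 (TACTTGA) or 7mer-A1 (ACTTGAA) occurs in the longest 3′ UTR of the other 8 genes, read on the transcript strand and counting each 7mer only outside an 8mer. Of the 21020 genes with a 3′ UTR, 4.19% hold the 8mer and 18.3% hold any of these letters, and among the 2337 genes with a 3′ UTR of a length like that of *Clec4n* the 8mer occurs in 1.24%. A match of letters is a description of the transcript and not evidence of binding. *Clec4n* was lower, not higher, in the mice without the miRNA, and the part of the site in its level was not tested.

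The libraries held 25706728 to 33345037 counts assigned to genes, with medians of 27905415 in miRNA-26b-/- and 30213563 in the controls. The deleted *Mir26b* hairpin had 0 counts in all miRNA-26b-/- libraries and 0, 20 and 0 counts in the controls, and so checks the labels only weakly. By their labels these are aortic endothelial cells, whereas the methods name the aortic arch and the thoracic aorta. The 6 smooth muscle markers summed to 31085 to 41966 CPM (counts scaled to a common library size, corrected for composition by TMM), the 6 fibroblast markers to 7818 to 13838 CPM and the 10 endothelial markers to 623 to 2018 CPM, so that smooth muscle genes led in every library. The endothelial sum separated the libraries: it was 623 CPM in M2626 and 702 CPM in M2627, against 1449 to 2018 CPM in the other 4 libraries. The 18 macrophage markers summed to 517, 611 and 1450 CPM in miRNA-26b-/- mice, against 882, 1027 and 993 CPM in the controls, so that M2626 and M2627 were the lowest and M2628 the highest. In RNA from whole tissue, fewer cells of a type and less RNA per cell cannot be told apart.

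*Clec4n*, the Dectin-2 receptor, had 1 count in M2626, 0 in M2627 and 4 in M2628, against 72 in M2629, 58 in M2630 and 67 in M2631. The transcript was thus nearly undetected in each miRNA-26b-/- library and evenly present in the controls, and the groups did not overlap. This amounts to 0.0602 ± 0.0732 CPM with the deletion against 2.22 ± 0.118 CPM without it (mean ± SD, n = 3 each). The count of 0 in M2627 allows up to 0.0893 CPM, the level of 3 counts in that library. Over the 3 libraries of a genotype, the miRNA-26b-/- rate, from 5 counts, was 2.59% of the miRNA-26b+/+ rate, from 197 counts, with an exact 95% interval of 0.833% to 6.16% that covers counting error only. The fitted log2 fold change was -5.18 (standard error 1.69), and it depends on the prior count since the miRNA-26b-/- counts are so low. The gene (ENSMUSG00000023349) lies on chromosome 6 from 123229843 to 123247021, shares no exonic base with another annotated gene, and 3.19% of its 25-base stretches also occur in transcripts of other genes, most of them in *Gm44147*, which had 0 counts in all libraries.

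**Figure D1:**
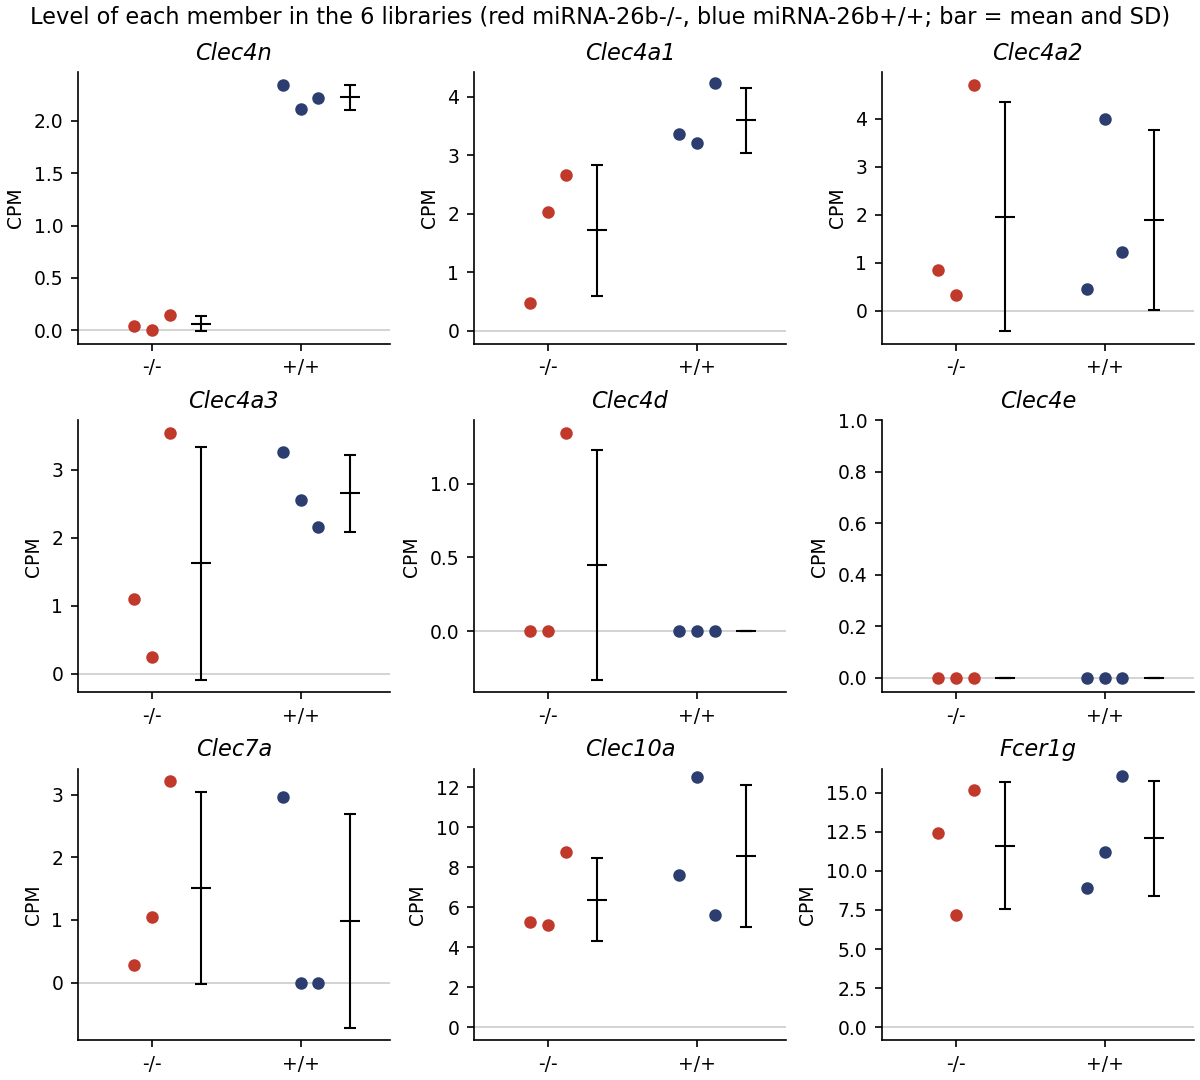
Each panel plots the level of 1 gene in CPM (vertical axis, linear) in the 3 miRNA-26b-/- libraries (red) and the 3 miRNA-26b+/+ libraries (blue), in the order M2626 to M2628 and M2629 to M2631, with the mean and SD as a black bar. *Clec4n* lies between 0 and 0.142 CPM in red and between 2.11 and 2.35 CPM in blue, *Clec4a1* is the only other gene without overlap, and *Clec4e* is at 0 throughout.

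Set against its own adaptor, *Clec4n* was just as low. For every 1000 counts of *Fcer1g* in the same library there were 3.13, 0 and 9.35 counts of *Clec4n* in miRNA-26b-/- mice, against 263, 188 and 138 in the controls. The miRNA-26b-/- mean of 4.16 ± 4.76 was 2.12% of the miRNA-26b+/+ mean of 196 ± 63.0 (SD, n = 3). Relative to 1000 counts of the 18 macrophage markers, the means were 0.0577 ± 0.0512 and 2.32 ± 0.312, and relative to 1000 counts of the other 8 genes described here they were 1.84 ± 1.80 and 75.6 ± 12.7. With each of these 3 denominators the genotypes did not overlap for *Clec4n*. This follows from its counts of 0 to 4 against 58 to 72, on which the genes were chosen, and nothing is read from it. For the other receptors with counts in most libraries, *Clec4a1*, *Clec4a2*, *Clec4a3*, *Clec7a* and *Clec10a*, the genotypes overlapped with each denominator. In CPM, groups without overlap were seen in 11.5% of all genes tested. M2626, M2627 and M2628, with 1, 0 and 4 counts of *Clec4n*, had macrophage marker sums of 517, 611 and 1450 CPM. The part of macrophage content in the level of *Clec4n* was not tested.

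**Figure D2:**
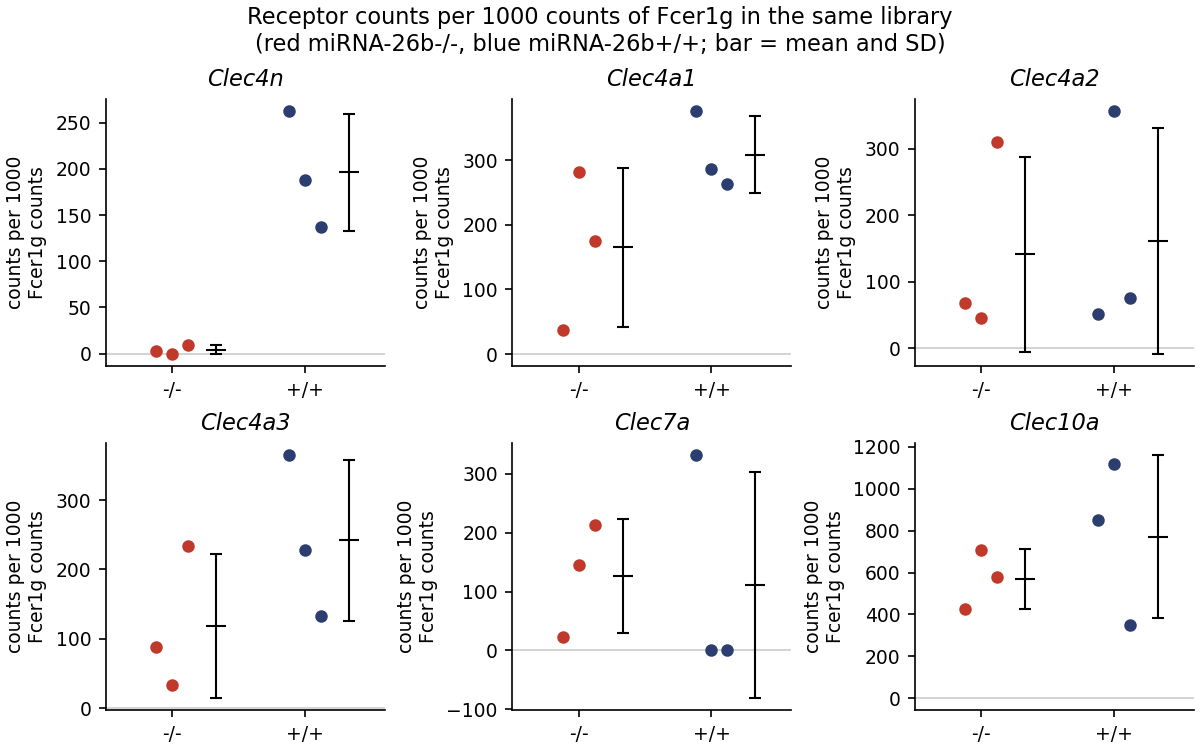
The vertical axis of each panel gives the counts of a receptor for every 1000 counts of *Fcer1g* in the same library, for 3 miRNA-26b-/- (red) and 3 miRNA-26b+/+ libraries (blue), with the mean and SD in black. *Clec4n* is between 0 and 9.35 in red and between 138 and 263 in blue, whereas the red and blue ranges of the other 5 receptors overlap.

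Relatives of *Clec4n* lie near it on chromosome 6, where the 6 *Clec4* genes described here span 368.0 kb. *Clec4a4*, *Clec4b1* and *Clec4b2*, which are not among the genes described, lie within this span. *Clec4a1* (Dcir4) had 12, 68 and 75 counts in miRNA-26b-/- mice against 103, 88 and 128 in the controls, levels of 1.72 ± 1.13 and 3.60 ± 0.554 CPM. These groups did not overlap either, but the gap was narrow: the highest miRNA-26b-/- library, M2628, had 2.66 CPM and the lowest miRNA-26b+/+ library, M2630, had 3.20 CPM. The log2 fold change of *Clec4a1* was -1.03 (standard error 0.728), and without M2626, its lowest library, it was -0.64. *Clec4a3* (Dcir3) had 28, 8 and 100 counts against 100, 70 and 65, so that M2628 equalled the highest control in counts and the groups overlapped. Its log2 fold change was -0.77 (standard error 0.864), and -2.12 without M2628. *Clec4a2* encodes Dcir1, an inhibitory receptor whose tail carries a motif for phosphatases, and it lies 85.84 kb before *Clec4n*. Its counts of 22, 11 and 133 in miRNA-26b-/- and 14, 110 and 37 in miRNA-26b+/+ scattered over the same range in both genotypes, with a log2 fold change of 0.06 (standard error 1.02). In total 13.65% of the 25-base stretches of *Clec4a2* occur in other genes, mostly *Clec4b1* and *Clec4a4*. *Clec4a4* was at 0 counts in all libraries and *Clec4b1* in all but M2627, which had 33.

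On the other side of *Clec4n*, 15.09 kb away, lies *Clec4d*, which encodes MCL (Dectin-3), the partner of Mincle. *Clec4d* had 38 counts in M2628 and 0 in the other 5 libraries. *Clec4e*, the gene of Mincle itself, a receptor for mycobacterial glycolipid and dead cells, had 0 counts in all 6 libraries, which allows at most 0.117 CPM in the shallowest library. Neither gene passed the filter, and no fold change is given for them.

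*Clec7a*, the beta-glucan receptor Dectin-1, lies 6171.72 kb beyond *Clec4e* and is annotated as a polymorphic pseudogene in the release used. Its 7, 35 and 91 counts in miRNA-26b-/- and 91, 0 and 0 in miRNA-26b+/+ gave a log2 fold change of 0.56 (standard error 1.28) that rests on single libraries. Without M2629, the sole miRNA-26b+/+ library with counts, it was 8.47, and without M2628 it was -0.53. *Clec10a*, the galactose-type lectin MGL1 on chromosome 11, had 135, 171 and 248 counts against 233, 344 and 170, with overlapping groups and a log2 fold change of -0.42 (standard error 0.478). It shares 15.95% of its 25-base stretches with its paralog *Mgl2*, so part of its reads could come from that gene. *Fcer1g*, the adaptor on chromosome 1, had 319, 241 and 428 counts against 274, 308 and 487, levels of 11.6 ± 4.06 and 12.1 ± 3.66 CPM. Its log2 fold change of -0.09 (standard error 0.395) was well within the spread between mice, and its interval does not show that the levels are equal.

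Per kilobase of exon, *Fcer1g* was the most abundant of the 9 genes in every library. In the miRNA-26b+/+ libraries it had 13.8 ± 4.19 CPM per kb, followed by *Clec10a* with 2.96 ± 1.23, *Clec4a1* with 2.31 ± 0.356, *Clec4a3* with 1.998 ± 0.424 and *Clec4n* with 1.57 ± 0.0834 CPM per kb. The control ranges of each neighbouring pair in this order from *Clec10a* to *Clec4n* overlapped. *Clec4n* took place 5 of the 9 genes in each control library. It was above *Clec4a2* with 0.647 ± 0.638 and *Clec7a* with 0.375 ± 0.649 CPM per kb, which did not differ from each other beyond their spread. In the miRNA-26b-/- libraries it took place 7, 7 and 8, with 0.0424 ± 0.0515 CPM per kb, below *Clec4a3* with 1.22 ± 1.29, *Clec4a1* with 1.10 ± 0.723, *Clec4a2* with 0.672 ± 0.817 and *Clec7a* with 0.573 ± 0.580 CPM per kb. As a share of the summed counts of the 9 genes, *Clec4n* made up 8.12%, 5.93% and 7.02% in the controls. In miRNA-26b-/- mice its share was 0.191% in M2626 and 0.358% in M2628, with Wilson 95% intervals of 0.0337% to 1.07% and 0.139% to 0.917%, and in M2627 the count of 0 allows up to 0.562%.

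**Figure D3:**
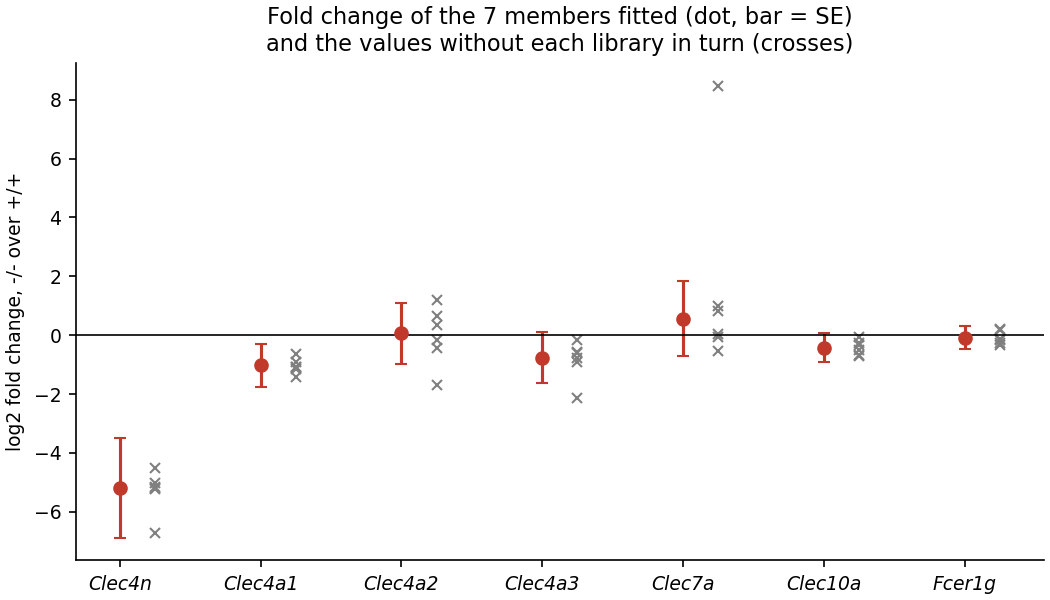
The vertical axis gives the log2 fold change of miRNA-26b-/- over miRNA-26b+/+ for the 7 genes fitted, as a dot with its standard error as a bar, and the grey crosses give the value without each library in turn. *Clec4n* lies between -6.72 and -4.52 in all 6 of these fits, and *Clec7a* reaches 8.47 when the only miRNA-26b+/+ library with counts is left out.

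In the fit over all 16017 genes with edgeR's quasi-likelihood test, 6.47% of genes had an unadjusted p under 0.05, 3.07% were among these and lower in miRNA-26b-/-, and 0.00624%, 1 gene, had an adjusted p under 0.05. Of the 7 genes fitted here, *Clec4n* was 1 of the 492 lower genes and none was called after adjustment. Groups without overlap were seen in 11.5% of all genes, and in 5.88% with miRNA-26b-/- lower, against 2 of 7 here, *Clec4n* and *Clec4a1*. As the genes were chosen by this contrast, nothing is read from these counts. The median log2 fold change was -0.42 over the 7 genes, -0.25 without *Clec4n* and 0.01 over all genes tested.

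Whether the receptors followed the macrophage content of a library was tested over the 6 libraries regardless of genotype. *Clec4a3* had the highest Pearson correlation of its log2 CPM with the mean log2 CPM of the 18 macrophage markers, r = 0.85 and rho = 0.83 (exact permutation test over 720 pairings, two-sided, p = 0.0111 and 0.0583, n = 6). After Benjamini-Hochberg adjustment over the 6 genes related in this way, these became p = 0.0667 and 0.117 by the same exact permutation test, so no relation passed the threshold. *Clec4a2* had r = 0.78 and rho = 0.94 (exact permutation p = 0.0764 and 0.0167, adjusted p = 0.229 and 0.1). *Clec10a* had r = 0.73 and rho = 0.89 (exact permutation p = 0.119 and 0.0333, adjusted p = 0.237 and 0.1). *Clec4a1*, *Fcer1g* and *Clec7a* had r of 0.65, 0.58 and -0.03 and rho of 0.43, 0.60 and 0.09, with adjusted exact permutation p-values of 0.237, 0.283 and 0.944 for r and 0.503, 0.363 and 0.919 for rho. Without M2626 and M2627, the libraries farthest from the median marker level, only M2628 and the controls remained. M2628 had a marker level of 5.68 log2 CPM and the controls 4.81 to 5.09, so M2628 weighs heavily in each r. Here r was 0.54 for *Clec4a3*, 0.80 for *Clec4a2*, 0.34 for *Clec10a*, 0.49 for *Fcer1g*, 0.38 for *Clec7a* and -0.81 for *Clec4a1*. The positive value for *Clec4a1* thus rested on M2626 and M2627. The relation of *Clec4n* to the macrophage markers was not tested in this way, as its libraries fall into separate clusters by genotype. The groups of *Clec4a1* did not overlap either, though by a narrow gap, and it was kept. Genotype and marker level are therefore not separated in its value. Across the miRNA-26b-/- libraries the macrophage markers ranged from 517 to 1450 CPM and *Clec4n* from 0 to 0.142 CPM.

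**Figure D4:**
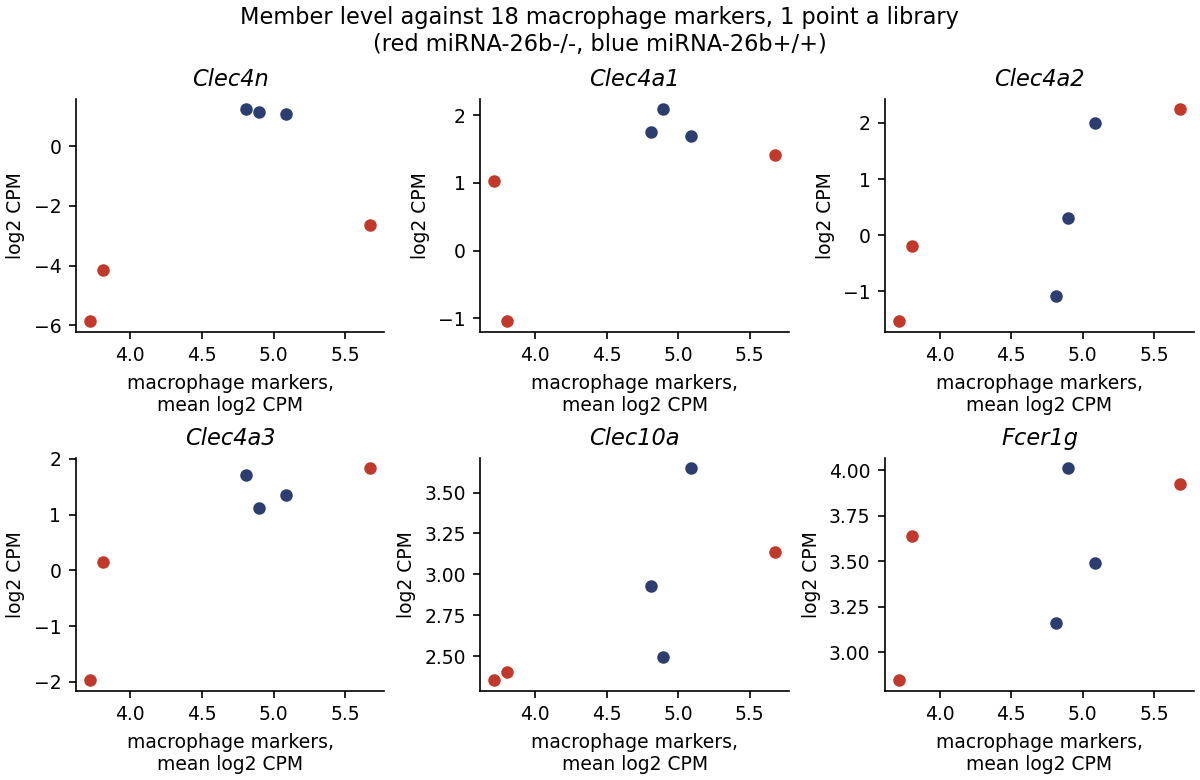
Each point is 1 library, with the mean log2 CPM of the 18 macrophage markers on the horizontal axis and the log2 CPM of the gene on the vertical axis (miRNA-26b-/- in red, miRNA-26b+/+ in blue). The rightmost red point, M2628, has the highest marker level and lies above all blue points for *Clec4a2* and *Clec4a3*, whereas for *Clec4n* the red points lie between -5.87 and -2.66 and the blue points between 1.09 and 1.24.

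Within 500 kb of *Clec4n* on either side, 33 other genes are annotated, of which 15 had a count in any library and 9 were tested, and 3 of these 9 are the *Clec4a* receptors above. Of the 6 other tested genes 2 were lower and 4 higher in miRNA-26b-/-, and 1 had an unadjusted p under 0.05, against 6.47% of all genes tested. That gene was *Slc2a3*, a glucose transporter. It had 77, 402 and 181 counts against 124, 30 and 22, a log2 fold change of 1.91 (standard error 0.723, edgeR adjusted p = 0.736). *C3ar1*, the receptor for complement fragment C3a on myeloid cells, had 77, 203 and 395 counts against 258, 194 and 357, with overlapping groups. The most transcribed of these neighbours were *Foxj2*, a transcription factor gene with 1745 to 3089 counts in a library, and *Necap1*, an endocytosis gene with 635 to 861, with log2 fold changes of 0.003 (standard error 0.188) and 0.04 (standard error 0.242). These 4 genes were named after their values were seen.

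The other genes of the pathway gave no call after adjustment in any list, and all lists were drawn up with earlier results of these data known. Of 19 other myeloid C-type lectins 12 were tested, 6 lower and 6 higher, with a median log2 fold change of 0.02, and 1 in each direction had an unadjusted p under 0.05. Over all genes tested, 6.47% had such a p in either direction. The lower gene was *Mgl2*, the galactose-type lectin paralog of *Clec10a*, with 187, 207 and 351 counts against 605, 411 and 424 (log2 fold change -0.93, standard error 0.376, edgeR adjusted p = 0.736). The higher gene was *Clec2d*, which encodes a ligand of an inhibitory receptor of natural killer cells, with 1081, 685 and 528 counts against 498, 410 and 389 (log2 fold change 0.86, standard error 0.345, edgeR adjusted p = 0.736). *Mrc1* and *Ly75*, the mannose receptor and its relative DEC-205 and the most abundant lectins of the list, had 52.1 ± 50.8 against 62.0 ± 3.36 CPM and 26.9 ± 11.6 against 37.5 ± 4.45 CPM, with overlapping groups.

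Of 12 adaptors and partner receptors 6 were tested, 3 lower and 3 higher, with a median of -0.07 and none with an unadjusted p under 0.05. *Tyrobp*, the gene of DAP12, an adaptor of the same kind as the product of *Fcer1g*, had 15.2 ± 2.15 CPM against 11.3 ± 5.34 CPM in the controls. The Fc receptors that share the gamma chain gave different values: *Fcgr3* had 17.97 ± 8.89 against 15.2 ± 3.93 CPM, *Fcgr1* 32, 0 and 120 counts against 93, 179 and 130, and *Fcgr4* 0, 0 and 5 counts against 33, 55 and 0. Of 19 genes of the signalling cascade 18 were tested, 12 lower and 6 higher, with a median of -0.16 and none with an unadjusted p under 0.05. *Syk*, the kinase at its head, had 276, 20 and 278 counts against 489, 415 and 357 (log2 fold change -1.10, standard error 0.534, edgeR adjusted p = 0.769). *Lyn*, a Src family kinase that phosphorylates the gamma chain, had 62, 234 and 241 counts against 364, 338 and 264 (log2 fold change -0.84, standard error 0.457, edgeR adjusted p = 0.795). The groups of *Syk* and of *Lyn* did not overlap, as in 5.88% of all genes tested with miRNA-26b-/- lower. *Card9*, named after its values were seen, had 1, 12 and 0 counts against 0, 26 and 104 and was not tested, while *Ptpn11* and *Prkcd*, which many cells of the wall express, had log2 fold changes of 0.12 and 0.06.

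Of 19 cytokines and mediators that the receptors can induce, 7 were at 0 counts in all libraries, among them *Il6*, *Tnf* and *Il23a*. Of the 8 tested, 7 were lower and 1 higher, with a median of -0.38, and 1 in each direction had an unadjusted p under 0.05. The share with such a p over all genes tested was 6.47%. *Ltc4s*, leukotriene C4 synthase, had 121, 357 and 121 counts against 98, 31 and 0 (log2 fold change 2.22, standard error 0.795, edgeR adjusted p = 0.736). *Egr2* had 60, 45 and 157 counts against 167, 349 and 183 (log2 fold change -1.40, standard error 0.619, edgeR adjusted p = 0.748). *Ptgs2* and *Egr3*, the most abundant of the list, had log2 fold changes of -0.18 and -0.21.

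**Figure D5:**
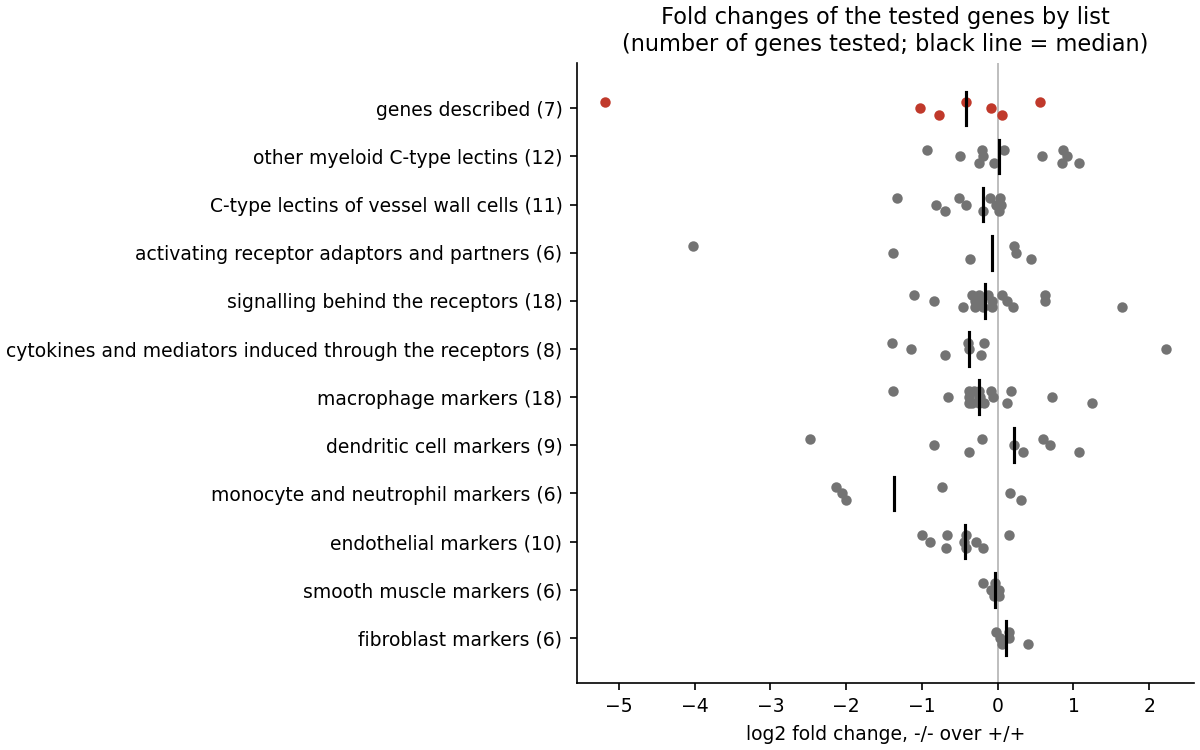
Each dot is 1 tested gene, placed by its log2 fold change of miRNA-26b-/- over miRNA-26b+/+ (horizontal axis), in rows by list with the number of genes tested and a black line at the median. The 9 genes described, 7 of them tested, are in red, with *Clec4n* at -5.18. The monocyte and neutrophil markers have the lowest median, -1.36, from 6 tested genes that were each at 0 in at least 1 library.

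Markers of the cells that could carry *Clec4n* were compared in the same libraries. Of the 18 macrophage markers, all tested, 14 were lower and 4 higher, with a median of -0.25 and none with an unadjusted p under 0.05, and no marker was at 0 in any library except *Fcgr1*, at 0 in M2627. The macrophage genes with the smallest p were *Cx3cr1*, with a log2 fold change of 1.24, and *Fcgr1*, with -1.38, and the most abundant were *Lyz2*, with -0.06, and *Mertk*, with -0.24. Of 12 dendritic cell markers 9 were tested, 4 lower and 5 higher, with a median of 0.22 and sums of 165 to 387 CPM in miRNA-26b-/- mice against 205 to 275 CPM in the controls. Among them *Flt3*, *Itgax*, *Xcr1*, *Clec9a*, *Batf3* and *Ccr7* were at 0 in at least 1 library. *Flt3*, a receptor of dendritic cell precursors, had 0, 0 and 25 counts against 78, 34 and 30 (edgeR adjusted p = 0.8), and *Irf4* had 106, 407 and 75 against 82, 756 and 205, while *Cd74* and *H2-Aa*, of antigen presentation, had log2 fold changes of 0.22 and 0.33. Of 11 monocyte and neutrophil markers, each at 0 in at least 1 library, 6 were tested, 4 lower and 2 higher. Of these 1, *S100a9*, had an unadjusted p under 0.05, against 6.47% of all genes tested. Their sum was 6.40, 14.8 and 8.29 CPM in miRNA-26b-/- mice against 14.7, 24.5 and 21.6 CPM in the controls, and the defining neutrophil genes *Ly6g* and *Camp*, named after their values were seen, were at 0 in 5 libraries each. *S100a9* had 0, 48 and 80 counts against 111, 198 and 258 (log2 fold change -2.13, standard error 0.764, edgeR adjusted p = 0.736), and *S100a8* 0, 54 and 0 against 23, 80 and 125. The groups overlapped for *S100a8* and for *Ccr2*, and *Ccr2*, with a log2 fold change of 0.30, was 1 of the 2 higher genes. The mean of the sum was lower in miRNA-26b-/- mice, but the groups overlapped, with M2627 just above the lowest control. An exact permutation test of the means gave p = 0.2, where 3 against 3 libraries cannot go below 0.1. The test was run on every list and this p was the smallest, so nothing is read from it. The part of these cells in the level of *Clec4n* was not tested.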

How the data were processed

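Total RNA of the aortas was isolated, and libraries made from it with the TruSeq RNA Library Prep Kit were sequenced. Per the file headers, the authors deposited raw read counts made with featureCounts 1.6.4 over the exons of each gene name of GENCODE M21 (GRCm38), without strand and with a read over several genes counted for each, after alignment with STAR. A second deposited table, of normalised values and the authors' own comparison, was not used. Genes were kept whose counts summed to 2 or more and whose level exceeded 1 CPM in 2 or more libraries. They were normalised by TMM and fitted with edgeR 4.0.16 (R 4.3.3) and its quasi-likelihood test (current method, prior count 0.125 for fold changes), with p-values adjusted by Benjamini-Hochberg over all genes tested. The log2 CPM values used for correlations had a prior count of 0.5. Each group holds 3 mice, so an exact test of 1 value cannot go below p = 0.1. Reads carry no molecular identifiers, so intervals and limits cover counting error only. The genes described and the gene lists were chosen with earlier results of these data known. Beside the genes described, the genes named were, from each list, the 2 with the smallest p and the 2 with the highest mean CPM, *Mir26b* and its host *Ctdsp1*, genes that share 25-base stretches with a described gene, and the 5 genes most correlated with *Clec4n*. Genes outside this rule that are named with values or as being at 0 counts (*Card9*, *Ly6g*, *Camp*, *Il6*, *Tnf*, *Il23a*, *Itgax*, *Xcr1*, *Clec9a*, *Batf3*, *Ccr7*, *Slc2a3*, *C3ar1*, *Foxj2*, *Necap1*, *Nlrp3*) were chosen after their values were seen. Some genes occur in several lists (*Mrc1*, *Fcgr1*, *Clec9a*, *Cd209a*). Alternatives were the normalisation, the filter, the test (DESeq2 1.42.0, limma 3.58.1 voom, likelihood ratio), another prior count and the omission of each library in turn. The earlier quasi-likelihood method of edgeR was added after seeing the data. The fit was tested on simulated counts of these genotypes, where 188 of 15008 genes tested had been altered by 2 on the log2 scale, up or down. An unadjusted p under 0.05 was found for 88.3% of the altered genes and for 6.63% of those left as they were. In the real data 6.47% of all genes tested had such a p. The simulation held no outlying library, so it does not show how the fit behaves with one.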

Additional observations from a re-analysis of the deposited data

How the results depend on the processing

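The log2 fold change of *Clec4n* was negative under all 16 alternatives, between -5.44 (limma voom) and -4.19 (prior count 2) with all libraries, and from -6.72 without M2628 to -4.52 without M2627. Under each other normalisation, filter and test, and without each library, *Clec4n* was the 1 described gene with an unadjusted p under 0.05. None was called after adjustment. As the genes were chosen by this contrast in these same libraries, nothing is read from this count. In the main edgeR fit 6.47% of all genes had an unadjusted p under 0.05. As a share of the miRNA-26b+/+ mean, *Clec4n* per *Fcer1g* count was 2.12%, 2.49% per macrophage marker count, 2.43% per count of the other 8 genes, and 0.799% (without M2628) to 3.18% (without M2627) when a library was left out. *Clec4a1*, *Clec4a3* and *Clec10a* also stayed negative in all 16, whereas the sign turned in 4 for *Clec4a2* (lowest -1.70, highest 1.19), in 2 for *Clec7a* and in 2 for *Fcer1g* (-0.34 to 0.20). Over all genes, 1036 had an unadjusted p under 0.05, and this ranged from 686 without M2631 to 1692 without M2628. After adjustment 1 gene was called, 0 with the earlier quasi-likelihood method (802 unadjusted, edgeR), 57 with DESeq2, 19 with the likelihood ratio test, 3 with limma voom, and 82 without M2628 (edgeR). No relation to the macrophage markers passed the adjustment with only the 17 markers of at least 1 CPM in every library or with a prior count of 2 (exact permutation test). No paired analysis was possible because the labels give no replicate numbers shared by the genotypes. The log2 fold changes of *Clec4a3* and *Clec10a* were smaller than their standard errors. Depth limits *Clec4d*, *Clec4e* and the miRNA-26b-/- level of *Clec4n*, which rest on counts at or near 0 in most libraries.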

Other observations

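The 5 genes whose log2 CPM followed that of *Clec4n* most closely over the 6 libraries, among 16016 compared, were *Canx*, *Hsp90ab1*, *Smim20*, *Ednrb* and *Med14*, with Pearson r of 0.985 to 0.988, and 40 genes had r of at least 0.95. The correlation is a description of likeness and no test, since the libraries of *Clec4n* fall into separate clusters by genotype and a gene that differs between the genotypes scores high by that alone. *Ednrb*, an endothelin receptor, had 113, 114 and 178 counts in miRNA-26b-/- against 305, 249 and 340, and *Hsp90ab1*, a cytosolic chaperone, 31271, 34689 and 34746 against 49791, 45485 and 50622. Of the genes described, *Clec4a3* came closest to *Clec4n* (r = 0.78, place 720), followed by *Clec4a1* (r = 0.65, place 1528), and *Clec7a* was farthest (r = -0.45, place 12883).

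*Nlrp3*, the sensor of an inflammasome and a member of the list of induced mediators that fell below the filter, was noticed after its values were seen. It had 1, 0 and 2 counts in miRNA-26b-/- and 30, 54 and 27 in miRNA-26b+/+, without overlap. Groups did not overlap for other named genes too, among them *Mgl2*, *Clec2d*, *Flt3*, *S100a9*, *Ltc4s*, *Eng* and *Ctdsp1*. The share over all genes tested was 11.5%.

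All 11 C-type lectins of vessel wall cells were tested, 8 lower and 3 higher, with a median log2 fold change of -0.20 and none called after adjustment. Of these 1, *Cd93*, had an unadjusted p under 0.05, against 6.47% of all genes tested. *Cd93*, a lectin of endothelial cells, had 628, 1566 and 2871 counts against 3114, 3187 and 2650 (log2 fold change -0.81, standard error 0.331, edgeR adjusted p = 0.736), and *Thbd*, thrombomodulin, -0.42 (standard error 0.212, edgeR adjusted p = 0.769). *Clec3b* and *Colec12*, the most abundant, had log2 fold changes of 0.05 and 0.02. Of the 10 endothelial markers 9 were lower, with a median of -0.43. *Eng* with -0.41 and *Tek* with -0.998 had the smallest p, and these 2 had an unadjusted p under 0.05. Over all genes tested 3.07% were lower with such a p. *Pecam1* had -0.67 and *Vwf* -0.90, and all of these had an edgeR adjusted p of 0.741 or higher. The 6 smooth muscle markers had a median of -0.04, with *Myh11*, *Cnn1* and *Acta2* at -0.19, -0.08 and -0.05, and the 6 fibroblast markers 0.11, with *Col1a1* and *Col1a2* at 0.40 and 0.15. *Ctdsp1*, the host gene of the deleted miRNA, had 188 ± 11.1 CPM in miRNA-26b-/- mice against 164 ± 15.6 CPM in the controls, a log2 fold change of 0.20 (standard error 0.145, edgeR adjusted p = 0.866).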
